A study of Mus musculus with 5 samples.

Results

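The 4 libraries compared here came from mouse embryonic fibroblasts (MEFs), connective tissue cells cultured from embryos, and differed in whether the transcription factor Meis1 had been added to the cells. Meis1 was overexpressed alone in M and together with Prep1 in MP. Cells infected with an empty vector (EV) and cells overexpressing Prep1 alone (P) carried no added Meis1. All 4 lines were C57BL/6 cells from E14.5 embryos (embryonic day), all were at passage 30, and all, EV included, carried the hypomorphic Prep1 genotype, an allele of reduced expression. A wild-type line (WT) is the only one of the 5 libraries of the series outside the comparison. RNA sequencing gave 1 library per line, and the labels name neither the vector's promoter nor the number of clones or embryos behind a line, so a difference between libraries may be one between lines. The members were the genes at which M and MP both lay beyond EV and P: of 11227 genes kept among 21372 gene symbols, both stood above in 2297 and both below in 2120.

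Meis1 is a homeodomain protein of the TALE class, in which an extended loop between helices binds partner proteins. It pairs with Pbx proteins on DNA, often beside Hox proteins, and is known for roles in blood stem cells, leukemia, limb patterning and the arrest of heart muscle cell division. Prep1, encoded by Pknox1, is a TALE protein that competes with Meis1 for Pbx partners and is known as a tumour suppressor. The title of the series ties both proteins to binding sites of AP-1, the Fos and Jun dimer that drives growth and invasion genes after stimulation. The comparison asks which genes followed added Meis1 whether or not Prep1 had been added too.

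Levels are FPKM (fragments per length of transcript and per fragments mapped) scaled so that the upper quartile of genes was 10 in each library, and differences are of log2(level + 1), which understates the change of genes with low levels. Read depth is unknown. The libraries stood apart before scaling: the upper quartile of the deposited FPKM reached 447.9 in M and 165.5 in EV, while MP had 10.1 and P had 12.02. Genes listed at 0 were few in EV (2.18%) and M (9.37%) and more frequent in P (24.6%) and MP (27.5%), so each pair of libraries set against each other below (M with EV, MP with P) was closer within itself than to the other pair. After scaling, the 99th percentile of the genes was only 1.78 to 2.01 times the upper quartile, so levels of well expressed genes were compressed. Of 17 fibroblast markers, 12 reached a level of 1 or more in at least 1 library. The summed level of the 17 lay between 130.1 and 144.8 in each library, and 1 of them was listed at 0 in MP. Summed markers of macrophages and leukocytes were 19.9 in EV, 16.9 in P, 17.1 in M and 16.5 in MP, and those of epithelium 7.21, 3.10, 2.81 and 1.87 in the same order. Only 3 of the 14 leukocyte markers and 2 of the 11 epithelial markers reached a level of 1 in any library. Pknox1 went against 2 labels: its level was 0.534 in the library labelled P and 0.542 in the library labelled MP, while EV had 2.06, M had 3.11 and WT had 10.7. P and MP below therefore mean the libraries so labelled.

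Meis1 itself (locus XLOC_005789) followed the labels. Without added Meis1 its level was 7.91 (EV) and 8.55 (P), with it 16.1 (M) and 14.7 (MP), so M stood at 2.03 times EV and MP at 1.72 times P. The libraries of the 2 sides did not overlap, and the difference was 0.83 ± 0.13 (log2, standard error of a limma fit over the 4 libraries). This value does not separate transcripts of an added copy from those of the cells' own gene. In a bulk library fewer cells that express a gene and less of its RNA per cell cannot be told apart. By limma with Benjamini-Hochberg adjustment over all genes kept, the adjusted p of Meis1 was 0.17, and the unadjusted p was 0.000467.

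Among the 14 TALE homeobox genes described, 2 stood higher with added Meis1 and 4 lower, against 20.5% and 18.9% of all genes kept. Mkx (Mohawk), a tendon regulator, was at 9.97 and 7.82 without added Meis1 and at 14.8 and 13.04 with it. Of the 14, Mkx alone lay on the side of Meis1. Meis2 and Meis3, the paralogs of Meis1, lay on the opposite side: Meis2 was at 8.80 in EV and 12.9 in P but at 7.82 in M and 8.12 in MP. Meis3 was at 3.38 and 4.51 without added Meis1 and at 2.08 and 2.65 with it, a difference of -0.55 ± 0.12. Pbx4 was at 1.46 and 0.833 without and at 0.435 and 0.232 with added Meis1, and Tgif1, a repressor, was lower by only 0.043, between 14.1 and 14.6 in all libraries, with its sign turned on the values as deposited (0.060, relative to the median of all genes). The others of the 14, among them Pknox2, Pbx3, Tgif2 and the Irx genes, overlapped between the sides. None of the 14 passed the adjusted limma test.

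**Figure D1:**
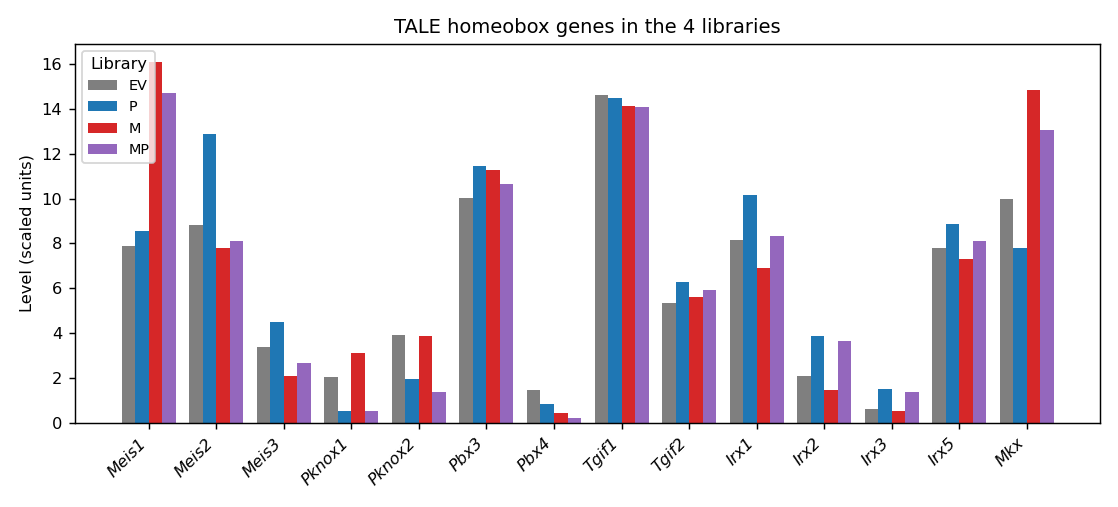
Level of each of 14 TALE homeobox genes in scaled units (upper quartile of genes set to 10) in EV, P, M and MP, 1 bar per library. Meis1 and Mkx are higher in M and MP than in both other libraries, and Pknox1 is low in P and MP.

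Over all genes kept, M and MP both lay above EV and P at 20.5% and both below at 18.9%. Together these made 39.3% of genes, where 33.3% would follow if all 6 orders of 2 and 2 libraries were equally likely. After the adjustment for transcript GC content and length described below, the shares were 15.3% and 16.02% of 10582 genes, together under 33.3%. Most gaps were small, with a median distance between the nearest libraries of 0.073 (log2) among the higher genes and -0.088 among the lower. A gap between the nearest libraries of at least 1.5-fold in level + 1 was present at 8 genes on the higher side (0.0713%). On the lower side there were 21 (0.187%). Genes were kept at a level of 1 or more in any library, so some of the 21 entered through EV or P alone. Mir3072 was at 0.70 in EV and 1.07 in P and at 0 in M and MP. Ccl8 was at 0.962 and 1.27 in EV and P and at 0.184 and 0.307 in M and MP. Each of the 8 higher genes reached a level of 1 on both sides. How far this filter shaped the 2 counts was not tested. All counts of genes past a fold, here and below, use level + 1. The 8 higher ones were Tnfsf11, Fam167a, Meis1, Il20ra, Vdr, Fam13c, Hunk and Kcnh2. Of the 21 lower ones, 8 encode small non-coding RNAs or an unnamed product (Scarna17, Snord58b, Snord92, Mir1906-2, Mir1943, Mir3072, Rpph1 and Gm4832). At the edge of this threshold, Kcnh2 (1.54-fold in level + 1) and Ccl8 (1.501-fold) lay just inside. B3galt1 (1.49-fold) and Isg20 (1.49-fold) lay just outside. The folds of the levels themselves were larger at all of these genes. The split depended on the scaling: with libraries scaled to equal medians, 5015 genes stood higher and 371 lower.

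No gene passed an adjusted p of 0.05 in limma (0% in either direction, 11227 tested), where 1 residual degree of freedom and a spread shared across genes stand in for replicates. At an unadjusted p under 0.05, limma gave 368 higher genes (3.28%) and 794 lower genes (7.07%). The smallest adjusted p was 0.14, reached by 5 genes, among them Adam8, Gchfr and Cda. Under other settings limma called between 0 and 119 genes higher and between 0 and 284 lower, the most being with median scaling and with all genes above 0. An exact two-sided permutation test of 2 against 2 libraries cannot go below p = 0.333, so no gene could pass by it. Differences are therefore given below as values.

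Base composition and length of the transcripts moved with the difference. Across the 10582 genes with a GENCODE transcript, Spearman's rho with GC content was -0.35 for M minus EV and -0.39 for MP minus P, and with length 0.26 and 0.23. Genes were split into 5 bins of equal size. In the bin with the lowest GC content (median 41.2%), 42.4% stood higher with added Meis1 and 4.35% lower. In the bin with the highest (median 57.5%) the shares were 3.92% and 42.0%. Short transcripts stood lower more often: 27.9% of the bin with the shortest (median 1332 nt) and 9.74% of the longest (median 6842 nt). With GC content and length adjusted for in each library, 1617 genes stood higher (15.3%) and 1695 lower (16.02%), of which 1124 and 1178 did so without the adjustment as well. The 12 genes per side described next had the widest gaps among genes at a level of 5 or more in any library. Most small RNAs were left out by name. Some genes passed that level only on the side where they were high, so this filter is not independent of the gap. Tnfsf11 passed it in M alone (5.25), and Gchfr in EV (5.41) and P (5.67) alone. All 24 still did not overlap between the sides after the adjustment, which their choice by the widest gaps made likely. Some gaps narrowed, as at Gadd45g (from -0.72 to -0.36), and some widened, as at Serpinb2 (from -0.96 to -1.08).

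**Figure D2:**
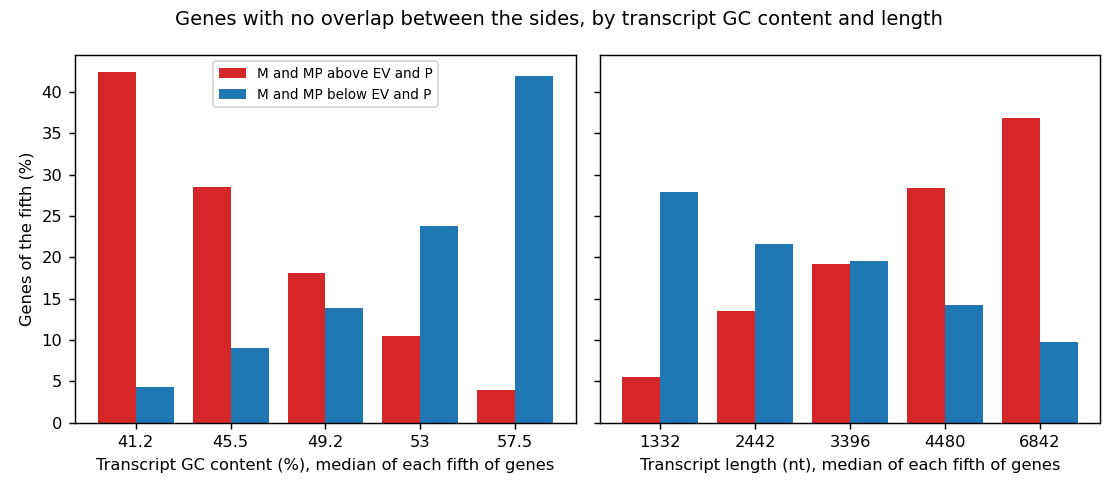
Share of genes (percent) with M and MP both above (red) or both below (blue) EV and P, in 5 equal bins of genes by transcript GC content (left) and transcript length (right), with the median of each bin on the x axis. The higher genes go from 42.4% in the bin lowest in GC content to 3.92% in the highest, and the lower genes from 4.35% to 42.0%.

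On the higher side, the widest gap of the 12 named genes belonged to Tnfsf11 (locus XLOC_013591), which encodes RANK ligand, the cytokine that drives osteoclast formation. Its level was 1.95 in EV and 1.86 in P and 5.25 in M and 4.30 in MP. Levels on each side lay close together, which the choice of genes by the widest gaps favours, and the difference was 0.99 ± 0.13 (log2, SE). Vdr, the vitamin D receptor, was at 4.75 and 4.40 without and at 7.95 and 8.95 with added Meis1 (0.76 ± 0.13). Il1r1, the signalling receptor of interleukin 1, was at 4.64 in EV and 2.51 in P and reached 9.28 in M and 7.02 in MP (1.03 ± 0.14). For Il1r1, P lay below EV and MP below M, so the gap between the nearest libraries was 0.51.

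Channels and transporters were also among the 12. Gria3, an AMPA-type glutamate receptor subunit, was at 4.89 in EV and 5.58 in P and at 8.52 in M and 9.60 in MP. Slc14a1, a urea transporter, was at 4.85 and 4.47 without and at 8.88 and 7.42 with added Meis1. Both genes were 0.69 higher with added Meis1 on the log2 scale. Among the enzymes, B3galt1, a galactosyltransferase of glycan synthesis, had the highest level of the 12 in EV, M and MP, with 12.02 in EV, 6.58 in P, 25.2 in M and 18.5 in MP (1.19 ± 0.14). Gstm4, a glutathione transferase, was at 3.38 and 2.20 without and at 5.34 and 5.08 with added Meis1. Gstm4 belongs to a family of similar sequence, and the sources used here do not say how its members split shared reads. Rbm47, an RNA-binding protein, was at 4.32 and 2.97 without and at 8.17 and 6.55 with added Meis1. Klhl24, a substrate adaptor of a ubiquitin ligase, had nearly the same level within each side, 4.29 in EV and 4.28 in P and 6.71 in M and 6.70 in MP. Fam167a stood at 2.17, 2.09, 5.005 and 4.40 in EV, P, M and MP. Mb21d2 stood at 4.61, 4.64, 7.001 and 6.86 in the same order. In all 12 genes both pairs, M against EV and MP against P, gave a positive difference, which the choice of the genes fixes.

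On the lower side, Gchfr, which encodes the feedback regulator of GTP cyclohydrolase in tetrahydrobiopterin synthesis, had the widest gap of the 12. Its level was 5.41 in EV and 5.67 in P and 1.97 in M and 1.66 in MP (-1.22 ± 0.13). Adam8 (locus XLOC_049241), a cell surface metalloprotease linked to invasion, was at 5.71 and 6.79 without and at 2.17 and 1.97 with added Meis1 (-1.24 ± 0.14). M stood at 0.38 times EV for Adam8 and MP at 0.29 times P. Serpinb2, the plasminogen activator inhibitor 2 and a known AP-1 target, was at 7.26 in EV and 6.88 in P and at 2.95 in M and 3.04 in MP (-1.01 ± 0.12). Within each side the libraries lay close together at all 3 genes, which the choice by the widest gaps favours.

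Wnt10b, a Wnt ligand that holds mesenchymal cells back from fat differentiation, was at 5.97 in EV and 10.6 in P and at 3.35 in M and 3.12 in MP (-1.08 ± 0.20). The pairs differed for Wnt10b, at -0.68 for M minus EV and -1.49 for MP minus P, and whether they do so beyond error was not tested. Gadd45g, a growth arrest and stress gene, was at 14.6 and 14.2 without and at 7.26 and 8.21 with added Meis1. Cda, cytidine deaminase, was at 4.42 and 6.62 without and at 1.58 and 2.04 with added Meis1. The zinc transporter gene Slc39a3 was at 3.81 and 5.90 without and at 1.93 and 2.24 with it. Lgals9, galectin 9, was at 8.10 in EV, 7.56 in P, 4.65 in M and 3.77 in MP. Isg20, an interferon-induced exonuclease, was at 10.6 in both EV and P and at 6.75 in M and 5.78 in MP. Ly6c2, a surface antigen of immune cells with a close copy, Ly6c1, was at 12.6, 13.2, 8.21 and 7.21 in EV, P, M and MP. Pbp2, which has a close copy in Pebp1, was at 11.6, 11.5, 6.42 and 7.54. Rpph1 is the RNA of ribonuclease P, a transcript of 319 nt, and was at 12.1, 13.4, 7.504 and 5.45. For Ly6c2 and Pbp2 the assignment of reads shared with the copy is uncertain.

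**Figure D3:**
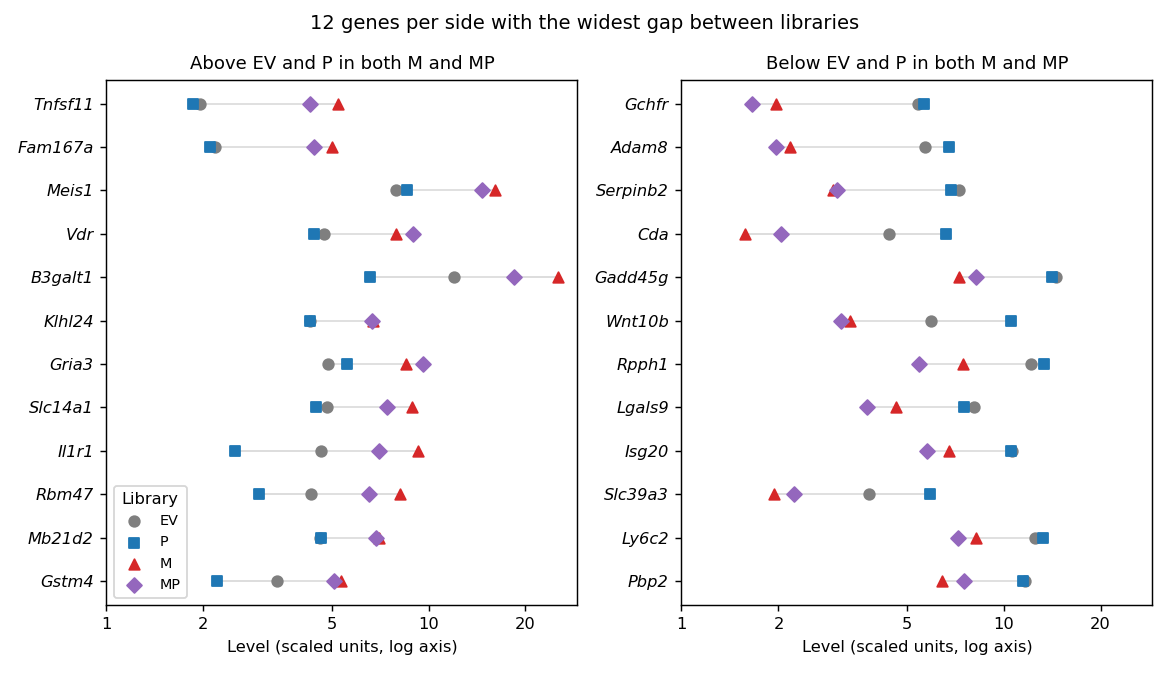
Level in scaled units (log axis) of the 12 named genes on the higher side (left) and the 12 on the lower side (right), 1 symbol per library and a line over their range. Every row has EV and P on one side and M and MP on the other, as the choice of genes requires.

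Promoters of these genes were read from the RefSeq table (GRCm38.p6, from 250 bases before to 50 after the first listed start), a build other than the mm9 of the files, and matched by symbol at 8266 of the 11227 genes. They were searched on both strands for TGACAG, the site that TALE proteins of the Meis and Prep type bind, and for TGANTCA, the AP-1 site with any base in the middle. The first motif cannot lie within the second. It was present in 16.6% of all promoters, 16.9% of those of higher genes and 16.7% of those of lower genes. The AP-1 motif was present in 5.09%, 4.15% and 6.13%. Of the named higher genes, 8 had a promoter in the table, of which 2 held TGACAG and 0 held TGANTCA. Of the named lower genes, 11 had one, of which 3 held TGACAG and 1 held TGANTCA. Each promoter below is shown because it holds, or at the gene with the widest higher gap does not hold, 1 of the motifs, with matches in capitals. Tnfsf11 lies at chr14:78307994-78308293 on the minus strand, Il1r1 at chr1:40224830-40225129, Serpinb2 at chr1:107511173-107511472 and Isg20 at chr7:78913174-78913473 on the plus strand.
Tnfsf11: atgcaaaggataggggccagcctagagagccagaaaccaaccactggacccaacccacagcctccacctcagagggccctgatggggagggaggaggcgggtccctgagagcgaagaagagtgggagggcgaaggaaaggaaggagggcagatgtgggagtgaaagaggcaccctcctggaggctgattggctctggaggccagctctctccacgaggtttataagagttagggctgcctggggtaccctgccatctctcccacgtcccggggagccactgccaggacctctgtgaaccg
Il1r1: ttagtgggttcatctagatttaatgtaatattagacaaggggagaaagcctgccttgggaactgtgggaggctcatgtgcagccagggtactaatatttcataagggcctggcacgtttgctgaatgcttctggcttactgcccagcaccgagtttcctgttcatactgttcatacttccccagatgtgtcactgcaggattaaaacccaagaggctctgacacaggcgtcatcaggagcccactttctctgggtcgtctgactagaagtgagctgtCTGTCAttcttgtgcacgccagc
Serpinb2: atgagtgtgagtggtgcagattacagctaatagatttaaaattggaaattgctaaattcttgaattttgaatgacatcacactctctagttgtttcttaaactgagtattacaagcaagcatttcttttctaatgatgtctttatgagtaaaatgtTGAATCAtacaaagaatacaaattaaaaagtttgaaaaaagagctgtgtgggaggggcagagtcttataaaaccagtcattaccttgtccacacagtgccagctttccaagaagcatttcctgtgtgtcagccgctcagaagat
Isg20: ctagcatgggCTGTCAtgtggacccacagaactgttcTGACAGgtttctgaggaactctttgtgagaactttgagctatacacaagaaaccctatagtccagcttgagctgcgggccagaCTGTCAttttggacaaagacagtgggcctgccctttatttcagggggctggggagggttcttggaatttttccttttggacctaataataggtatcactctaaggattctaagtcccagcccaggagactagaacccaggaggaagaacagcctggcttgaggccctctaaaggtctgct
Il1r1 held CTGTCA, the reverse complement of TGACAG, with its first base 27 bases after the start. Serpinb2 held TGAATCA 94 bases before the start. Isg20 held 3 matches to TGACAG on the 2 strands, 240, 213 and 130 bases before the start. Tnfsf11 held neither motif in this window. A match describes letters in the promoter and was not tested as a binding site.

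The gene lists that follow are given by counts, beside the 20.5% of all genes kept that stood higher and the 18.9% that stood lower, or 15.3% and 16.02% after the adjustment for GC content and length. Of the 13 genes kept of the FGF family and its feedback genes, 6 stood higher (46.2%) and 2 lower (15.4%), and 7 and 0 after the adjustment. The higher ones were the ligands Fgf7 and Fgf10 and 4 feedback or downstream genes, while the ligand genes Fgf2 and Fgf14 overlapped between the sides. Fgf10, the mesenchymal ligand that signals to epithelium in limb and lung buds, was at 1.80 in EV and 0.950 in P and at 5.202 in M and 2.85 in MP (1.06 ± 0.13). Fgf7, its close relative, was at 22.1 and 20.9 without and at 25.4 and 22.3 with added Meis1. The Sprouty genes, feedback inhibitors that FGF signalling induces, lay on the same side: Spry1 was at 4.80 in EV, 3.74 in P, 7.71 in M and 6.04 in MP (0.58). Spry4 was at 5.34, 6.74, 7.57 and 7.65 in that order, and Spry2 was higher by 0.25. Etv5, a transcription factor downstream of FGF receptors, was higher by 0.12, while Etv4 was lower by 0.14 and Fgfrl1 by 0.10. After the adjustment the higher genes were not the same ones. Fgf7 and Etv4 overlapped between the sides, while Fgfr1 and Fgfrl1 stood higher by gaps of only 0.042 and 0.0042 (log2). The median over the 13 genes was 0.12, against 0.0027 over all genes kept. It turned to -0.038 on the values as deposited, relative to the median of all genes, and to -0.064 with all genes above 0. None of the 13 passed the adjusted limma test.

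Of 6 PDGF genes kept, 2 stood higher and 2 lower, and 2 and 1 after the adjustment. Pdgfra, the receptor that marks many fibroblasts, was at 2.43 in EV, 5.58 in P, 6.26 in M and 7.35 in MP (0.71), so EV alone was low. Pdgfa, its main ligand, was at 14.6 and 13.2 without and at 10.9 and 11.3 with added Meis1 (-0.30). Pdgfb stood lower by 0.52, but overlapped after the adjustment, and Pdgfc stood higher by 0.14.

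Of 14 TNF superfamily genes kept, 1 stood higher (Tnfsf11) and 7 lower, a share of 50% beside 18.9% of all genes, with a median of -0.23. After the adjustment 1 stood higher and 4 lower, beside 15.3% and 16.02% of all genes. Tnfrsf21, a death domain receptor, was at 7.66 in EV and 8.87 in P and at 5.70 in M and 6.97 in MP. Eda2r, the receptor of ectodysplasin A2, was at 2.79 and 2.51 without and at 1.76 and 2.15 with added Meis1. Tnfrsf1b, a TNF receptor without a death domain, was lower by 0.25 and Tnfsf9 by 0.25. RANK (Tnfrsf11a) and the decoy receptor osteoprotegerin (Tnfrsf11b), which both bind the product of Tnfsf11, overlapped between the sides, with differences of -0.27 and 0.11.

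Metalloproteases of the ADAM and ADAMTS families lay on both sides, 6 higher and 6 lower of 20 kept, and 4 and 4 after the adjustment. Besides Adam8, Adam15 was at 10.6 in EV and 13.5 in P and at 6.98 in M and 9.67 in MP (-0.49). Adamts9, a secreted protease that cleaves versican and aggrecan, was at 6.23 and 5.47 without and at 11.3 and 8.25 with added Meis1 (0.64). Adamts5, the main aggrecanase of mouse cartilage, was at 8.76, 6.32, 10.02 and 10.3 in EV, P, M and MP (0.40). Adam10, a sheddase of Notch and growth factors, was higher by 0.32. Adamtsl5 was lower by 0.76, Adamtsl4 by 0.48, Adamts14 by 0.43 and Adamts10 by 0.36, but Adamtsl4 and Adamts10 overlapped after the adjustment.

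In the extracellular matrix, Acan stood apart in size but not in gap. Acan, which encodes the cartilage proteoglycan aggrecan, was at 5.15 in EV and 9.49 in P and at 0.974 in M and 4.60 in MP (-1.27 ± 0.19). MP lay just under EV, a gap of only 0.14, so the size of the difference rests on P and M. Of the 8 cartilage genes kept, Acan was the 1 that stood lower, and 3 stood higher: Sox9, the master regulator of cartilage fate, by 0.32, versican (Vcan) by 0.26 and Col11a1 by 0.17. After the adjustment Col11a1 overlapped, and 2 stood higher and 1 lower. Of 17 collagen chains kept, 0 stood higher and 5 lower (29.4%, beside 18.9% of all genes), and 0 and 4 after the adjustment (beside 15.3% and 16.02%), and their median was -0.19 in M minus EV and 0.023 in MP minus P. Col5a3 was at 4.02 in EV and 4.52 in P and at 1.78 in M and 1.55 in MP (-0.98). Col18a1, the source of endostatin, was at 10.8, 11.7, 7.57 and 7.48 (-0.52), Col27a1 was lower by 0.51, Col16a1 by 0.39 and Col4a5 by 0.23.

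Pi15, a secreted protein that inhibits trypsin, had the largest difference among the marker genes set for the comparison. Its level was 9.26 in EV and 1.79 in P and 22.3 in M and 11.4 in MP (1.67 ± 0.22). Both pairs went the same way, at 1.18 for M minus EV and 2.15 for MP minus P. EV and MP lay close, so the gap was 0.27. The adjusted p in limma was 0.16 for Pi15, 0.15 for Fgf10 and 0.17 for Acan.

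**Figure D4:**
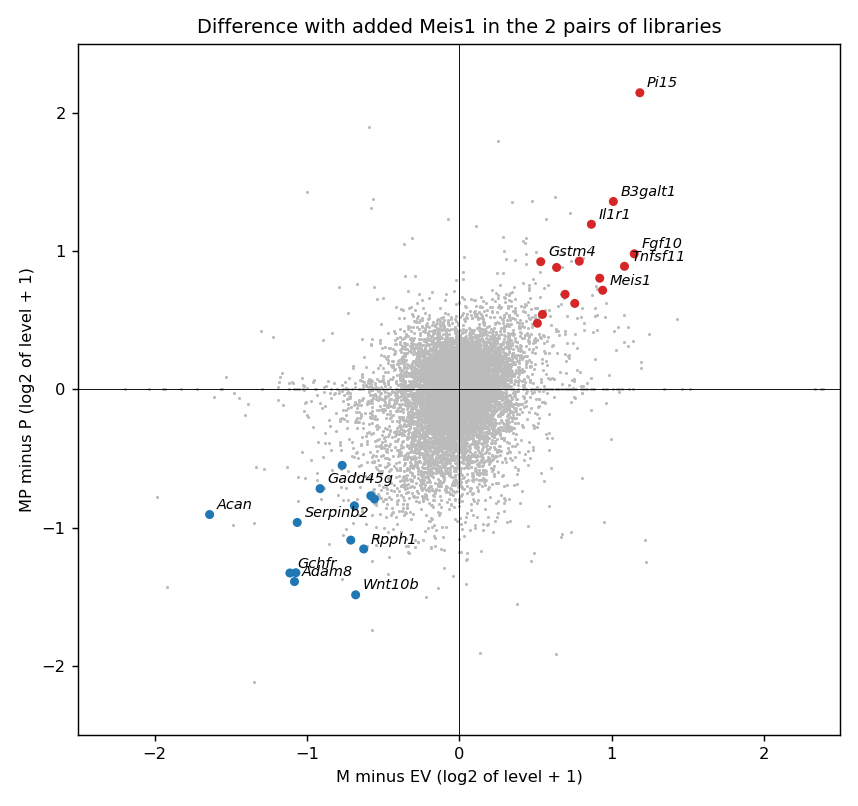
Difference of M from EV (x axis) against difference of MP from P (y axis) in log2(level + 1) for each gene kept, with the named higher genes in red and the named lower genes in blue. Named genes lie in the upper right or lower left part. Genes listed at 0 in both P and MP form the horizontal line at 0, and 10 genes lie outside the axes.

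Among BMP and TGF-beta genes, Nog had the widest gap. Nog encodes Noggin, the secreted antagonist of BMPs, and was at 3.04 in EV and 2.72 in P and at 0.443 in M and 0.886 in MP (-1.23). Of 27 genes kept on this axis 7 stood higher and 3 lower, and 3 and 3 after the adjustment for GC content and length. Receptors were among the higher ones, with Tgfbr1 higher by 0.23 and Bmpr1a by 0.22. Bmper, a BMP-binding protein, was higher by 0.20. In the Wnt pathway 4 of 22 genes kept stood higher and 5 lower, with Wnt10b the lowest. Sfrp1, a secreted Wnt inhibitor, was at 3.75 in EV and 2.40 in P and at 5.02 in M and 7.71 in MP (0.85). Rspo3, which amplifies Wnt signals, was at 2.02, 0.634, 2.26 and 2.71 in EV, P, M and MP. The receptor gene Fzd1 was at 8.71 and 8.57 without and at 11.4 and 11.7 with added Meis1 (0.38), and the transcription factor gene Tcf7 was higher by 0.41. Dkk2 was lower by 0.21. All 4 higher Wnt genes stayed higher after the adjustment. With it, 5 of the 22 stood higher and 2 lower, beside 15.3% and 16.02% of all genes.

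AP-1 subunits, the proteins named with Meis1 and Prep1 in the title of the series, differed by small amounts. Of 16 kept, 1 stood higher (Atf2, by 0.15) and 7 lower (43.8%, beside 18.9% of all genes), with a median of -0.13. After the adjustment Mafk stood higher in place of Atf2, and 3 stood lower, near the 16.02% of all genes. Batf3, which pairs with Jun in immune cells, was at 1.62 in EV and 2.69 in P and at 0.617 in M and 0.890 in MP (-0.83). The Jun family lay together: Junb, at 20.1 in EV and 18.1 in P, was lower by 0.33 with added Meis1, Jund was lower by 0.36 and Jun by 0.16. After the adjustment Jun was still lower (-0.067) and Junb and Jund overlapped. Fosl1, a Fos relative of invasive cells, was at 5.07, 6.77, 4.78 and 4.24 in EV, P, M and MP. Fos, with a difference of 0.13, and Fosl2, with -0.044, overlapped between the sides. Immediate-early genes, the first genes to answer serum or stress, gave 2 higher and 9 lower of 21 (42.9%, beside 18.9% of all genes, median -0.14). After the adjustment, which covered 19 of them, 4 stood higher and 4 lower. Klf4 was at 3.65 and 4.62 without and at 2.36 and 3.44 with added Meis1. Zfp36, which destabilises cytokine messages, was lower by 0.41, Ier5 by 0.30 and Egr1 by 0.16. Klf4 and Egr1 overlapped between the sides after the adjustment. Nr4a1 stood higher by 0.17, at 14.8, 14.7, 16.6 and 17.0 in EV, P, M and MP.

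Genes of the epidermal differentiation list, most of them calcium-binding S100 proteins and cornified envelope proteins, gave 0 higher and 7 lower of 12 kept, with or without the adjustment. All genes gave 18.9% lower without it and 16.02% with it, against 58.3% here, and the median over the list was -0.37. S100a7a was at 5.68 in EV and 3.05 in P and at 2.21 in M and 1.60 in MP (-0.85). S100a16 was at 3.25 and 3.76 without and at 1.66 and 1.74 with added Meis1 (-0.73). S100a11 was at 13.4, 12.1, 9.97 and 9.97 in EV, P, M and MP. Serpinb2 and Krt8 are on this list as well. The summed level of the 11 epithelial markers was 7.21 in EV, 3.10 in P, 2.81 in M and 1.87 in MP. The number of them listed at 0 was 0 (EV), 2 (P), 1 (M) and 3 (MP). Only 2 of the 11 reached a level of 1 in any library. The median over the 11 was 0.456 in EV, 0.0578 in P, 0.155 in M and 0.0694 in MP, so it did not split by added Meis1. The part of the epithelial markers in the values of this list was not tested.

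Interferon response genes gave 1 higher (3.33%) and 6 lower (20%) of 30 kept, so the lower share was near the 18.9% of all genes, and 0 and 5 after the adjustment. Their median was -0.27 in M minus EV and -0.011 in MP minus P. Irf7, the transcription factor that amplifies the interferon response, was at 7.41 in EV and 4.68 in P and at 3.83 in M and 2.33 in MP (-0.78). Ddx58, the RNA sensor RIG-I, was at 9.97 and 9.43 without and at 7.86 and 7.25 with added Meis1. Xaf1 was lower by 0.54, Rtp4 by 0.41 and Oasl1 by 0.35, while Ifit2 was higher by 0.18. Chemokines and cytokines were split, 3 higher and 3 lower of 15, and 4 and 3 after the adjustment. Il1rn, the antagonist of the receptor that Il1r1 encodes, was at 9.10 in EV and 6.28 in P and at 11.4 in M and 13.6 in MP (0.65). Il6 was at 1.89, 1.38, 3.36 and 2.44 in the same order (0.56). Ccl8, a monocyte chemokine, was at 0.962 and 1.27 without and at 0.184 and 0.307 with added Meis1, and Il33, an alarmin, was lower by 0.42. Leukocyte markers differed little in sum between the sides (17.1 and 16.5 with, 19.9 and 16.9 without added Meis1), and Ptprc, the pan-leukocyte marker, was at 0.176 or less in all 4 libraries.

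Genes that other studies have tied to Meis1 in leukemia, heart and stem cells gave 7 higher (46.7%, beside 20.5% of all genes) and 3 lower (20%, beside 18.9%) of 15 kept, with a median of 0.19. After the adjustment 6 stood higher and 2 lower, beside 15.3% and 16.02% of all genes, with a median of 0.12. Cdkn1a, which encodes the cell cycle inhibitor p21, was at 3.25 in EV and 2.89 in P and at 5.05 in M and 4.84 in MP (0.55). Lyn, a Src family kinase, was at 1.04 in both EV and P and at 2.59 in M and 1.84 in MP (0.65). Hlf, a transcription factor of blood stem cells, was at 2.70 and 2.75 without and at 3.55 and 4.92 with added Meis1. Myb was at 0.498 in EV, 0.865 in P, 1.47 in M and 1.18 in MP, and Trib2, a pseudokinase linked to leukemia, at 7.45, 7.95, 9.58 and 10.7. Msi2 was higher by 0.29 and Hif1a by 0.14. Syk, a kinase of immune receptors, was on the lower side, at 7.76 and 7.36 without and at 5.37 and 5.30 with added Meis1 (-0.43). Myc was lower by 0.30. Of the 18 cell cycle inhibitors, D cyclins and p53 targets kept, 6 stood higher and 3 lower, and 6 and 1 after the adjustment. Trp53inp1, a p53 target of stress, was at 1.93, 1.35, 2.69 and 2.81 in EV, P, M and MP (0.51). Bbc3, which encodes the cell death protein PUMA, was lower by 0.40 and Sesn2 by 0.20. None of these genes passed the adjusted limma test.

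Cytosolic ribosomal protein genes, short and abundant, gave 1 higher and 12 lower of 26 (46.2%, beside 18.9% of all genes), with a median of -0.17. After the adjustment 0 stood higher and 10 lower, beside 15.3% and 16.02% of all genes, with a median of -0.13. Rpl36 was at 9.76 in EV and 8.36 in P and at 5.87 in M and 6.10 in MP. Rplp1 was at 11.6, 8.12, 6.86 and 6.74 in the same order, and Rps20 was lower by 0.40. These genes have many processed copies in the genome, and the sources used here do not say which copy received a shared read. Rpl5, the 1 higher gene, was higher by 0.092. Over the 30 lists with at least 5 genes kept, the median lay on the same side of 0 in both pairs for 15.

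**Figure D5:**
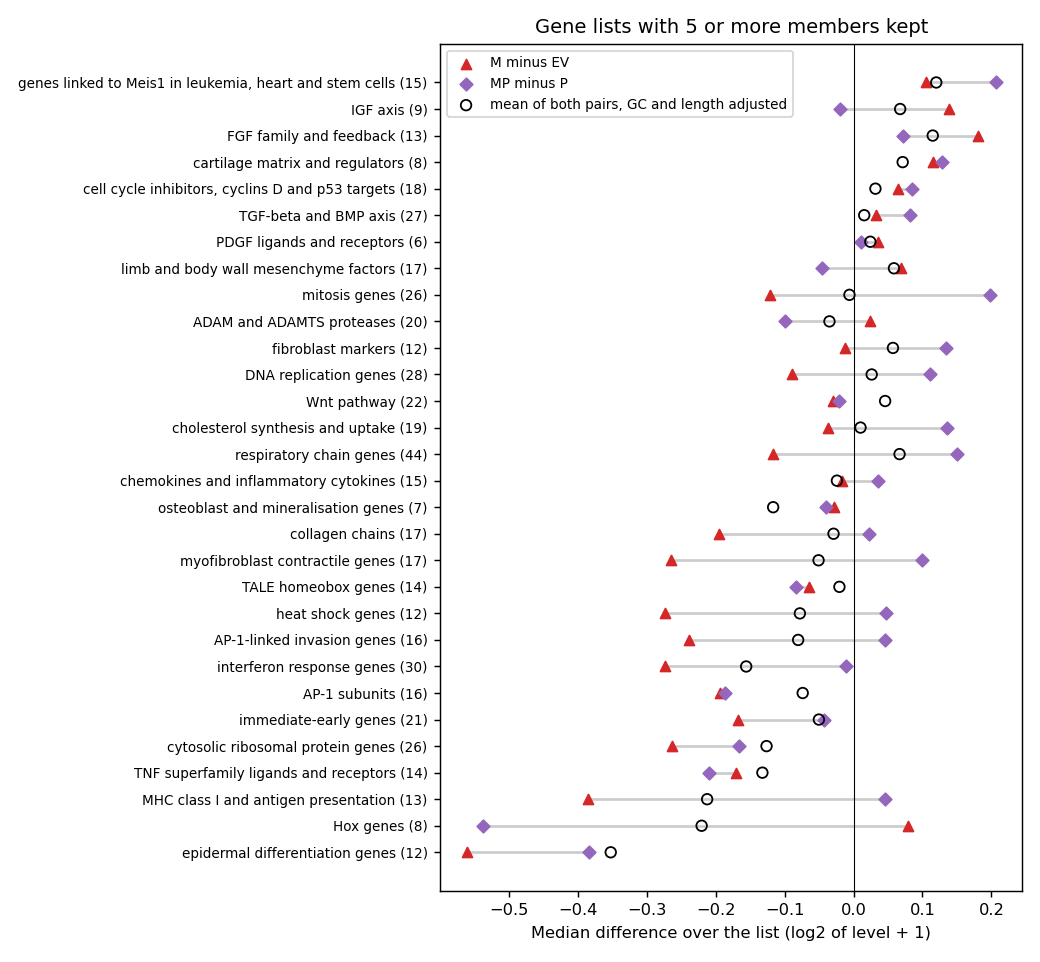
Median difference over each gene list (number of genes kept in brackets) in log2(level + 1), for M minus EV (triangles), MP minus P (diamonds) and the mean of both pairs after adjustment for GC content and length (open circles). The epidermal list lies lowest in M minus EV (-0.56) and by the adjusted mean (-0.35), the Hox genes lie lowest in MP minus P (-0.54), and the genes linked to Meis1 lie highest by the adjusted mean, at 0.12.

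The 2 pairs share no library, so they can be set against each other. Across the 11227 genes, which are not independent replicates, Pearson's r between M minus EV and MP minus P was 0.24 and Spearman's rho was 0.23, and 57.2% of the genes had the same sign. After the adjustment for GC content and length the values were 0.15, 0.082 and 51.3%. M stood above EV by 1.5-fold or more at 167 genes (1.49%) and below at 262 (2.33%), and MP stood above P at 142 (1.26%) and below at 562 (5.01%). Both pairs passed 1.5-fold upward at 28 genes (0.249%) and downward at 48 (0.428%). They went opposite ways at 11 genes with M above EV (0.098%) and at 4 with M below (0.0356%).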

How the data were processed

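Total RNA of 5 lines was sequenced, 1 library each, and the 4 used here were grouped by their labels. The authors deposited 4 tables of FPKM per locus, made with TopHat, Cufflinks and Cuffdiff on mm9 per the submitters' processing notes. Versions, annotation and the assignment of shared reads are not given in the sources used here. Tables were joined by locus and libraries scaled as described, with EV from the table of M. Loci with 1 symbol were used, the highest per symbol, and genes at 1 or more in any library were kept. Tests used limma 3.58.1 in R 4.3.3 on log2(scaled FPKM + 1), with Meis1 and Prep1 terms. The code was run on simulated data with 100 genes changed by 1 and 100 by 2 (log2). It recovered 93% and 100% of them, with 15 false calls. The number and size of these changes were set in advance, so the shares need not hold for the measured libraries. The threshold was an adjusted p of 0.05. Named genes were the marker and TALE genes, and the 12 widest gaps per side among genes at 5 or more in any library. MicroRNA, Snor, Scarna, olfactory, vomeronasal and clone-named symbols were left out of these gaps. Each described list added its 4 largest differences and the members that did not overlap. Chosen after seeing values were the other genes past 1.5-fold, Tnfrsf11a, Tnfrsf11b, Fgf2, Mafk, Fos, Fosl2 and Ptprc. The members and the 36 lists were chosen with earlier results of these data known. The adjustment for GC content and length (longest GENCODE M21 transcript, medians of 20 bins each, per library) was added after seeing the data. Some results are not reported here. With FPKM alone no counting interval could be made.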

Additional observations from a re-analysis of the deposited data

Results flagged for a closer look

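Some genes and lists went opposite ways in the 2 pairs. None of these differences was tested, because each group held 1 library. Camk1d, a calcium-dependent kinase, was at 26.2 in EV and 14.7 in M and at 11.4 in P and 19.8 in MP, so that MP minus P exceeded M minus EV by 1.53 (log2). Fosb, a Fos family subunit of AP-1, was at 5.46 in EV and 3.07 in M but at 2.04 in P and 4.16 in MP, a difference between the pairs of 1.43. U90926 went the other way, at 1.57 in EV and 3.48 in M but at 8.58 in P and 5.13 in MP, a difference of -1.45. The median of the mitosis genes was -0.12 for M minus EV and 0.20 for MP minus P, 0.32 apart. That of the respiratory chain genes was -0.12 and 0.15, 0.27 apart.

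Loci without a gene symbol were outside the comparison of named genes. Of 20592 such loci kept, M and MP both lay below EV and P by 1.5-fold or more at 179 (0.869%) and above at 1 (0.00486%). The shares were 0.187% and 0.0713% among genes with a symbol. By a gap of any size, 10.3% of these loci lay below and 0.597% above.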

How the results depend on the processing

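No paired analysis was possible because the labels give no replicate numbers and each group held 1 library, so libraries were matched by their Prep1 label alone, through the Prep1 term of the fit. Without that term limma called 0 genes in each direction as well (284 higher and 460 lower at an unadjusted p under 0.05). Under the alternatives tried, the number of genes that did not overlap, 2297 higher and 2120 lower, became 5015 and 371 with median scaling, 3 and 254 on the values as deposited, and with all genes above 0 the lower count became 3422. These scalings moved the median of all genes by 0.22 and 0.49 (log2). Fewer libraries can only raise these counts: the higher one was 5118 without EV, 3604 without P, 3224 without M and 3819 without MP, and the lower one 3916, 4685, 3720 and 3084. The counts at 1.5-fold, 8 and 21, became 53 and 13 with median scaling, 0 and 11 as deposited, 28 and 87 with a pseudocount of 0.1, 0 and 2 with a pseudocount of 5, 4 and 10 among genes at 5 or more, 95 and 151 at a smaller fold and 0 and 5 at a fold of 2. With quantile normalisation the higher count was 19. Without EV, P, M or MP the higher count was 100, 38, 19 or 112 and the lower one 274, 199, 102 or 64. The limma calls, 0 in each direction, became 119 higher and 53 lower with median scaling, 2 higher and 0 lower as deposited, 12 and 24 with a pseudocount of 5, 15 and 25 among genes at 5 or more, 108 and 284 with all genes above 0 and 75 and 102 with a variance prior that follows the level. Without 1 library they were 0 to 0 higher and 0 to 1 lower. Genes past 1.5-fold the same way in both pairs, 76, became 115 with median scaling, 304 and 5 with pseudocounts of 0.1 and 5, and 41 among genes at 5 or more. Those past it opposite ways, 15, became 1227 as deposited, 46 and 1 with these pseudocounts, and 7 among genes at 5 or more. The cause of these changes was not tested. The lists with the same side in both pairs, 15, stayed within 1.5 times.

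Of 164 genes followed, 12 turned in sign under at least 1 alternative. Without 1 library the differences ranged from -0.49 to 0.92 for Pknox1, -0.69 to 0.36 for Pknox2, -0.057 to 0.12 for Pbx3, -0.11 to 0.094 for Tgif2, -0.64 to 0.26 for Irx2, -0.40 to 0.25 for Irx3, -1.46 to 0.55 for Fgf14, -0.22 to 1.22 for Inhbb, -0.068 to 0.55 for Bmpr1b and -1.16 to 0.23 for Wnt10a. As deposited, relative to the median, Tgif1 was at 0.060, Tgif2 at 0.11 and Irx5 at 0.0028. Quantile normalisation gave -0.0022 for Pbx3, 0.036 for Tgif2 and 0.084 for Irx3. The adjustment for GC content and length gave -0.076 for Pbx3, 0.080 for Tgif2, 0.16 for Irx3 and 0.15 for Irx5. The limits are 1 library per line, unknown depth, values compressed toward the upper quartile, libraries of unlike scale and a Pknox1 level that goes against 2 labels.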

Other observations

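The wild-type line, which lacks the hypomorphic genotype and for which the labels name no vector, lies outside the comparison. Of the 12 named higher genes its level was above both EV and P in 7 and below both in 4, and of the 12 named lower genes above in 7 and below in 5. Fgf10 was at 9.49 in WT, above all 4 hypomorphic lines, and Acan was at 0.0246, below all 4. Meis1 in WT lay between the lines without and the lines with added Meis1. Over all higher genes WT lay above EV and P in 31.7% and below in 54.9%, over all lower genes in 47.9% and 34.4%, and over all genes kept in 33.3% and 48.3%.

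Olfactory and vomeronasal receptor genes, which fibroblasts are not known to express, were above 0 at 99.9% of 1422 genes in EV and 70.0% in M, but at 10.9% in P and 12.7% in MP. These values split the libraries as the deposited FPKM scale does and not by added Meis1.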
